A study of Mus musculus with 6 samples.

Results

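The arthritis response of the knee synovium was examined in mice that lacked Notch3. All cells of 1 arthritic Notch3 knockout library were set against all cells of 1 healthy Notch3 knockout library, after barcodes with more than 10% mitochondrial transcripts had been left out. This rule kept 7656 cells, 2656 from the arthritic and 5000 from the healthy knockout, of 18077 cells in the 6 libraries of the study. A further 23 arthritic and 91 healthy barcodes were taken for doublets, which left 2633 and 4909 cells in the results.

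4 libraries were compared for these results. The arthritic Notch3 knockout and the healthy Notch3 knockout carried the Notch3-/- genotype, and the arthritic wild type and the healthy wild type were their counterparts with an intact gene. Arthritic mice had received serum of K/BxN mice. The libraries of arthritic mice given an isotype antibody or an anti-Notch3 antibody were clustered together with these 4. Beyond that they gave 1 level, that of Milr1 in the isotype library. For each library, knee synovium of 10 mice was pooled and digested, and living cells were sorted and run on a droplet-based 3' kit of 10x Genomics, whose counts are of unique molecular identifiers (UMIs), 1 for each transcript caught. The knockout is given in the labels without a promoter or cell type, and the sources used here do not say which bases of the gene were removed. With 1 library a group there is no replicate and no test. Intervals in the text cover 95% counting error and nothing else, and differences between mice cannot be seen in pools.

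K/BxN serum carries autoantibodies that settle in the joints and bring on a transient arthritis driven by neutrophils, macrophages and complement. Notch3 is a receptor of the Notch family, best known from mural cells (the pericytes and smooth muscle of vessel walls), which receive Jagged and Delta-like ligands from endothelial cells. The synovium consists of a lining layer of fibroblasts and macrophages, which makes the lubricant of the joint, and a vascular sublining layer of fibroblasts beneath it.

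Notch3 itself, at chr17:32120820-32166852 on the minus strand of mm10 and annotated as protein coding, was nearly undetected in the knockouts. Over all cells it had 3 UMIs (0.257 CPM, UMIs scaled to the same total in each library; interval 0.0529 to 0.750) in the arthritic knockout and 7 UMIs (0.298 CPM, 0.120 to 0.613) in the healthy knockout, against 66 UMIs (5.58 CPM) in the arthritic wild type and 114 UMIs (4.96 CPM) in the healthy wild type. In mural cells its level was 28.0 CPM (3.39 to 101) in the arthritic knockout and 0 in the healthy knockout (up to 64.9), against 407 CPM and 550.1 CPM in the arthritic and the healthy wild type. By UMIs, wild-type fibroblasts held 27 in the arthritic and 81 in the healthy library, and wild-type mural cells 30 and 21. Knockout fibroblasts held 1 and 6. The 2 knockout libraries were read to a similar depth, with a median of 4298 UMIs a cell in the arthritic and 4530.0 in the healthy one, while the wild-type medians were 4058.5 and 7552.5. The barcode tags of the deposited matrices were numbered 63 in the arthritic and 151 in the healthy knockout, so disease and whatever these tags number cannot be told apart. The 2 knockout libraries shared 19 barcodes, 0.722% of the smaller library.

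The cell classes of the knockout synovium differed in endothelial and mural share, while the myeloid share was level. Fibroblasts made up 65.3% of cells in the arthritic knockout (63.5 to 67.1) and 74.6% in the healthy knockout, a ratio of 0.875 (0.826 to 0.927). Myeloid cells, the macrophages, monocytes and dendritic cells of the joint, held 17.6% and 17.5% (ratio 1.01, 0.898 to 1.13), whereas in the wild type they held 42.4% in the arthritic and 26.2% in the healthy library (ratio 1.62). Endothelial cells were the larger class that differed most, at 8.93% in the arthritic and 4.69% in the healthy knockout (ratio 1.90, 1.58 to 2.29; 1.04 in the wild type). Mural cells numbered 33 and 25, or 1.25% against 0.509% (ratio 2.46, 1.42 to 4.32). T and NK cells held 1.48% against 1.16%, with an interval of the ratio of 0.826 to 1.95. Where one class takes a larger share the others take smaller ones, so these shares are not independent.

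Neutrophils and B-lineage cells were few, and more of them were in the arthritic than in the healthy knockout. There were 27 neutrophils in the arthritic and 1 in the healthy knockout (share ratio 50.3, 8.30 to 2061), and 94 against 16 in the arthritic and healthy wild type (ratio 7.14). The 27 neutrophils carried 6847 UMIs of Camp and 5223 of Ngp, which encode granule proteins, 17565 of S100a8, and 3 of Cxcr2, the chemokine receptor of mature neutrophils. Camp was detected in 25 of these 27 cells. In the wild type it was detected in 5 of the 94 arthritic and 12 of the 16 healthy neutrophils. The cytokine Il1b was detected in 2 of the 27 cells, and in 75 of the 94 and 4 of the 16. The share ratios of the knockout and the wild type thus cover neutrophils that differed in these genes. B-lineage cells numbered 78 in the arthritic and 14 in the healthy knockout (ratio 10.4, 5.84 to 19.9), while the wild type ran the other way with 1 in the arthritic and 85 in the healthy library. The surrogate light chain genes Igll1 and Vpreb1, used by B-cell precursors, had 184 and 162 UMIs in the arthritic knockout, each in 16 of 78 cells. They had 0 in the 14 cells of the healthy knockout (up to 183 CPM each), few cells for such a comparison. In the healthy wild type they had 48 and 35 UMIs, in 9 and 6 of 85 cells. Of 2 further precursor genes, Dntt had 26 UMIs in the arthritic and 0 in the healthy knockout. Rag1 was level, at 47.9 and 49.6 CPM (9 UMIs and 1 UMI). Haemoglobin and neutrophil transcripts were also higher in other classes of the arthritic knockout: in fibroblasts the 6 erythroid markers summed to 24.3 CPM against 4.74 CPM in the healthy knockout, and the 8 neutrophil markers to 34.3 against 1.72 CPM. Their part in the results was not tested.

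**Figure D1:**
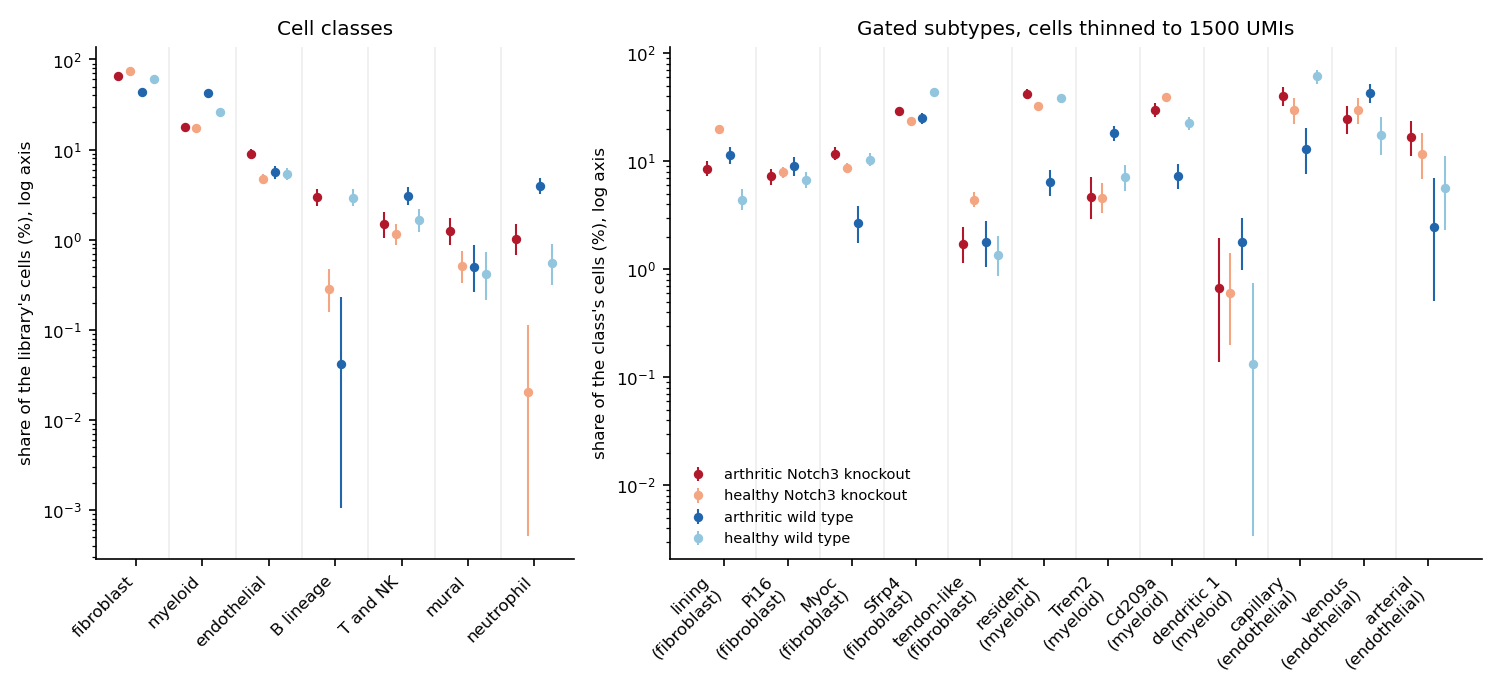
Shares of cell classes among all cells and of marker-gated subtypes within their class (percent, log axis), with the gated shares after thinning each cell to 1500 UMIs; points are libraries and bars 95% binomial intervals. Lining fibroblasts sit at 8.51% in the arthritic and 19.9% in the healthy knockout, and the wild-type libraries lie in the opposite order.

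Fibroblasts of the 2 knockout libraries differed in few genes, and the genes that differed were mostly not those of wild-type arthritis. Of 10983 genes with at least 50 UMIs over both libraries, 203 were at least 2-fold higher in the arthritic knockout (1.85%) and 240 at least 2-fold lower (2.19%). In the wild-type pair 574 of 10904 genes were higher (5.26%) and 800 lower (7.34%). The median log2 ratio over all counted genes was -0.03 in the knockout pair and -0.06 in the wild-type pair, so the scaling itself moved little. The class rests on 1720 arthritic and 3664 healthy knockout cells, and its largest single cluster was led by Ccl11 and Sult1e1 in the arthritic knockout (403 cells) and by Clic5 and Tspan15, lining genes, in the healthy knockout (840 cells).

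**Figure D2:**
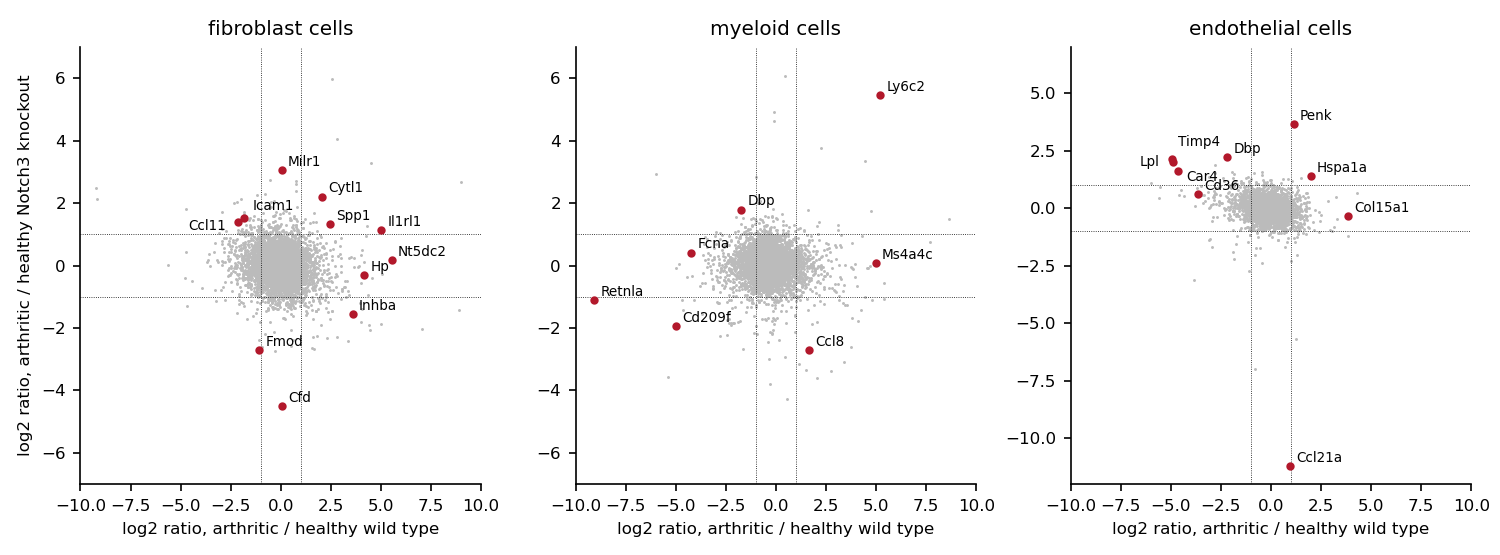
Log2 ratio of arthritic to healthy in the knockout pair (vertical) against the wild-type pair (horizontal), 1 point a gene counted in both pairs, for fibroblasts, myeloid and endothelial cells; dotted lines mark 2-fold. The wild-type axis is wide and the knockout axis narrow, with 20 fibroblast genes beyond 2-fold upward on both axes and 20 beyond it downward on both.

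The 12 highest log2 ratios named in knockout fibroblasts lay between 1.33 and 3.06. Milr1, an inhibitory immunoglobulin-like receptor known from mast cells, was at 48.6 CPM (44.0 to 53.7) in the arthritic and 5.81 CPM (4.77 to 7.02) in the healthy knockout, a log2 ratio of 3.06 (2.75 to 3.39). Its levels were 33.6 and 32.5 CPM in the arthritic and healthy wild type, and 6.38 CPM in the library of arthritic mice given an isotype antibody. Cytl1, a small secreted cytokine-like protein of cartilage and connective tissue, was at 209 against 45.2 CPM (log2 2.21, 2.09 to 2.33), and higher in wild-type arthritis too (77.3 against 18.8 CPM). Icam1, the adhesion molecule that holds leukocytes, was at 382 CPM (369 to 396) against 134 CPM (128 to 139), a log2 ratio of 1.52. In the wild type Icam1 stood lower in arthritis, at 75.2 against 268 CPM. Fgf7, a growth factor for epithelium, was at 96.9 against 32.3 CPM (log2 1.59), and Cygb, a globin of fibroblasts, at 382 against 137 CPM (log2 1.48); both were lower in arthritis in the wild type (log2 -1.35 and -1.14). Apoe, a lipid carrier, was at 1479 against 557 CPM (log2 1.41), Spp1 (osteopontin) at 211 against 83.5 CPM (1.34) and Creld2, an endoplasmic reticulum protein, at 122 against 46.6 CPM (1.39). The splicing-related gene Rsrp1 (log2 1.74), the glycine receptor gene Glra1 (1.68), the eosinophil chemokine Ccl11 (1.40) and the immediate-early gene Arc (1.33) completed the 12.

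The 12 lowest log2 ratios named lay between -4.51 and -1.40. Cfd, the complement protease adipsin, had 1.85 CPM (1.04 to 3.05) in the arthritic and 43.5 CPM (40.5 to 46.6) in the healthy knockout, a log2 ratio of -4.51 (-5.40 to -3.82), while the wild-type levels were 32.4 and 30.7 CPM. The keratan sulfate proteoglycans of tendon were low as well: Fmod was at 41.1 against 267 CPM (log2 -2.70) and Kera at 10.7 against 55.9 CPM (-2.37). Thbs4, a matrix protein of tendon, was at 51.2 against 167 CPM (log2 -1.70), although in the wild type it was higher in arthritis, at 165 against 54.6 CPM. Errfi1, a feedback inhibitor of the EGF receptor, was at 427 CPM (413 to 441) against 1413 CPM (log2 -1.73). Inhba, the activin A subunit, was at 24.7 against 73.0 CPM (log2 -1.56, -1.79 to -1.35), whereas in the wild type it was at 283 CPM in arthritic and 23.5 CPM in healthy cells. Hhip, an inhibitor of hedgehog signals (log2 -2.38), Sox11 (-1.70), Sema3a (-1.69), Sorbs2 (-1.57), Rgcc (-1.55) and Bhlhe40 (-1.40) were the others. Errfi1 was also lower in the other large classes, at 65.0 against 139 CPM in myeloid cells and 84.9 against 209 CPM in endothelial cells of the arthritic and healthy knockout; both levels lay far below those of fibroblasts.

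**Figure D3:**
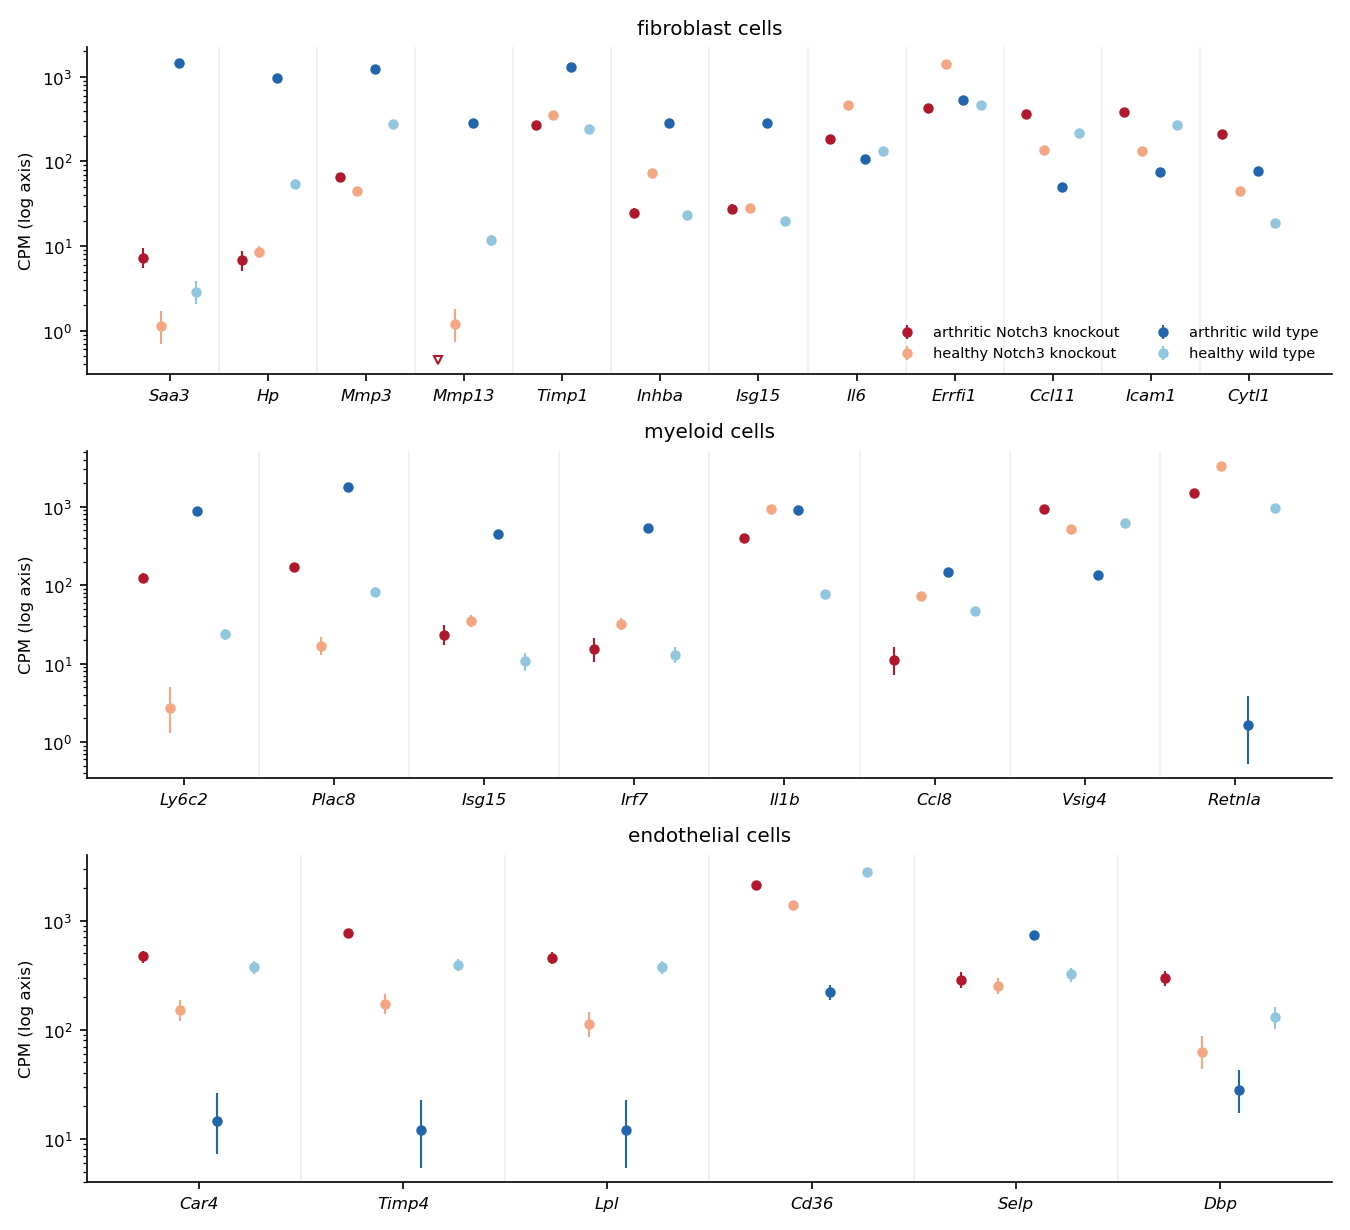
Levels of selected genes in fibroblasts, myeloid and endothelial cells (CPM of the class's UMIs, log axis), 1 point a library with 95% Poisson intervals; an open triangle marks 0 UMIs. Saa3 in fibroblasts is at 7.28 CPM in the arthritic and 1.13 CPM in the healthy knockout, against 1474 and 2.86 CPM in the arthritic and healthy wild type.

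The acute-phase program that marks wild-type arthritic fibroblasts was small in the knockout pair. Of 10 counted acute-phase genes, 2 were higher and 1 lower in the arthritic knockout, with a median log2 ratio of -0.16, against 5 higher and 1 lower of 10 in the wild type (median 0.65). Saa3, a serum amyloid, was the largest of them at 7.28 CPM (5.54 to 9.40) in the arthritic and 1.13 CPM (0.700 to 1.73) in the healthy knockout (log2 2.67, 1.95 to 3.48). That difference had the wild-type direction, but the arthritic wild type reached 1474 CPM, with 2.86 CPM in its healthy counterpart. Saa2 was at 3.83 against 1.45 CPM (log2 1.39, 0.61 to 2.20). Slpi, an inhibitor of neutrophil elastase, was lower, at 3.09 against 8.45 CPM (log2 -1.43, -2.12 to -0.84), whereas the wild type had 735 against 1.53 CPM. Haptoglobin, Hp, was at 6.79 against 8.45 CPM in the knockout pair and at 975 against 54.5 CPM in the wild-type pair.

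Among the chemokine lists of knockout fibroblasts, Ccl11, Cxcl14 and Ccl8 were higher past 2-fold. Of 8 counted stromal chemokines 2 were higher and 0 lower (median log2 0.46), Ccl11 at 361 CPM (348 to 374) against 137 CPM (131 to 142) and Cxcl14, a chemokine of resting tissue, at 1029.8 against 441 CPM (log2 1.22). Ccl11 was lower in arthritis in the wild type, at 49.6 against 215 CPM. Within the gated subtypes described later, no stromal chemokine passed 2-fold (0 of 3 in lining, 0 of 6 in Pi16, 0 of 7 in Myoc and 0 of 7 in Sfrp4 cells). Of the chemokines that draw monocytes, Ccl8 was at 32.6 against 14.0 CPM (log2 1.21) and Ccl2 at 307 against 182 CPM (log2 0.75, under 2-fold), with 184 against 85.8 CPM of Ccl2 in the wild type. Cxcl1, which draws neutrophils, was abundant in both knockouts, at 4872 and 3111 CPM (log2 0.65, 0.63 to 0.67). Its relative Cxcl5, at 234 CPM in the arthritic wild type, had 2 UMIs in the arthritic and 8 in the healthy knockout.

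Cytokine genes gave no common direction. Il6 was at 182 CPM (173 to 192) in the arthritic and 471 CPM (461 to 481) in the healthy knockout, a log2 ratio of -1.37 (-1.45 to -1.29), and was the 1 member of 11 counted in the interleukin 6 family to pass 2-fold. In the arthritic and healthy wild type Il6 was at 106 and 131 CPM. In the interleukin 1 family 1 of 8 genes was higher and 1 lower, the higher one being Il1rl1, the interleukin 33 receptor, at 17.2 against 7.80 CPM (log2 1.14, 0.79 to 1.48; wild type 46.3 against 1.40 CPM). None of 9 counted TNF family genes passed 2-fold, with a median of 0.04.

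Matrix-degrading enzymes, which wear away cartilage in arthritis, were close to level in the knockout pair. Of 17 counted genes 1 was higher and 1 lower (median log2 -0.09), against 5 higher and 1 lower of 18 in the wild type (median 0.57). Mmp3, stromelysin, was at 65.8 CPM (60.3 to 71.6) in the arthritic and 44.1 CPM (41.2 to 47.3) in the healthy knockout (log2 0.58, 0.42 to 0.74), while the wild type had 1230.0 against 281 CPM. Mmp13, a collagenase of cartilage, had 0 UMIs in the arthritic knockout (up to 0.455 CPM) and 22 UMIs (1.18 CPM) in the healthy knockout, against 285 and 11.6 CPM in the arthritic and healthy wild type. Adamts4, an aggrecan-cleaving enzyme, was at 3.09 against 13.6 CPM (log2 -2.12). Timp1, which inhibits these enzymes, was at 268 against 349.9 CPM (log2 -0.38), and at 1310.0 against 244 CPM in the wild type.

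The promoters of Mmp3 and Mmp13 are shown because both genes were at least 2-fold higher in wild-type arthritis and neither was in the knockout pair. Each window runs from 250 bases before to 50 bases after the start site (RefSeq promoters, GRCm38.p6), and capitals mark the AP-1 motif TGANTCA, searched on both strands. Mmp3 lies at chr9:7445572-7445871 and Mmp13 at chr9:7272264-7272563, both on the plus strand.
Mmp3: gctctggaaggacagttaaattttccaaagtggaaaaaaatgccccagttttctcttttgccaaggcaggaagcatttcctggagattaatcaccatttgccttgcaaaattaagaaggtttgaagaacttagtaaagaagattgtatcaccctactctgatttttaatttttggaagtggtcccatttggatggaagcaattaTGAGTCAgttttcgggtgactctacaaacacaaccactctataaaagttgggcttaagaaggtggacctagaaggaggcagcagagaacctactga
Mmp13: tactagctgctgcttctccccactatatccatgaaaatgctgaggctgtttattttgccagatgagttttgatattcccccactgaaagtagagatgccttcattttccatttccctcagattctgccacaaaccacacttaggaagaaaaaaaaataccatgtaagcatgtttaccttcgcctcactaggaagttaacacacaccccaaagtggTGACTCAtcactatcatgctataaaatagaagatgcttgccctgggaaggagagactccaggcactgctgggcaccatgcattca
The motif began 46 bases before the start of Mmp3 and 35 bases before that of Mmp13. It was in 4 of 11 promoters of the matrix-degrading list (36.4%) and in 2144 of 27025 of all promoters (7.93%). In the interferon response list, described next, it was in 4 of 14 promoters (28.6%). A match describes the letters and is neither a bound site nor a cause.

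The interferon response list had few genes past 2-fold in knockout fibroblasts. Of 14 counted interferon genes 1 was higher and 0 were lower (median log2 0.44), against 11 higher of 18 in the wild type (median 2.59). Isg15, a ubiquitin-like effector, was at 27.4 and 28.4 CPM in the arthritic and healthy knockout (log2 -0.05) and at 286 and 19.5 CPM in the arthritic and healthy wild type. Irf7, the transcription factor that amplifies the response, was at 11.98 against 9.42 CPM, with 119.8 against 7.38 CPM in the wild type. Bst2 (tetherin) was lower, at 60.0 against 89.1 CPM (log2 -0.57). The single gene past 2-fold was Iigp1, an immunity-related GTPase, at 106 CPM (98.7 to 113) against 21.7 CPM (19.7 to 24.0), and Iigp1 was at 1018 CPM in endothelial cells of the same arthritic library.

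Ifit3 and Rsad2, antiviral effectors of this list, show the difference in scale. Ifit3 was at 7.90 CPM (6.08 to 10.1) in the arthritic and 4.68 CPM (3.75 to 5.78) in the healthy knockout, and at 40.1 against 6.17 CPM in the wild type. Rsad2 had 4 and 13 UMIs in the arthritic and healthy knockout (0.494 and 0.700 CPM), against 8.17 and 0.318 CPM in the arthritic and healthy wild type. Their promoters follow with the motif TTTCNNTTTC, the core of the interferon response element, in capitals (Ifit3 chr19:34583279-34583578, plus strand; Rsad2 chr12:26456403-26456702, minus strand, printed in the direction of the gene).
Ifit3: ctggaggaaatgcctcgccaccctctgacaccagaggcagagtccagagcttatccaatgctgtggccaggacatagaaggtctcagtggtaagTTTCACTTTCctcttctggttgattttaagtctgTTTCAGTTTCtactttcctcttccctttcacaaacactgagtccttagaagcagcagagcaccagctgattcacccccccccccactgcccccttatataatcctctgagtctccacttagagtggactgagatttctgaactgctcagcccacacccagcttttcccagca
Rsad2: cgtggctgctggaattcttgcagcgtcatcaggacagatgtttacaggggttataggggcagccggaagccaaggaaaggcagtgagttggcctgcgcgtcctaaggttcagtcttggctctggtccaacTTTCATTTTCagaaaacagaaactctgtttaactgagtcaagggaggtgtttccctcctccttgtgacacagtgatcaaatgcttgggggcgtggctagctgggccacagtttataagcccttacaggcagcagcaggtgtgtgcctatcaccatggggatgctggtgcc
Ifit3 held 2 matches, 156 and 122 bases before its start, and Rsad2 held 1, 120 bases before. The motif was in 9 of 14 promoters of the list (64.3%) and in 943 of 27025 of all promoters (3.49%). In the matrix-degrading list it was in 2 of 11 promoters (18.2%).

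Collagens and other matrix genes were mostly under 2-fold or lower in the arthritic knockout. Of 25 genes, 1 was higher and 5 lower in the arthritic knockout (median log2 -0.22), against 12 higher and 0 lower in the wild type (median 0.98). Col1a1 was at 3065 CPM in the arthritic and 4018 CPM in the healthy knockout (log2 -0.39), and at 6868 against 5018 CPM in the wild type. Tenascin C, Tnc, a glycoprotein of injured matrix, was at 5.68 against 13.1 CPM (log2 -1.20, -1.70 to -0.75), while the wild type had 169 against 10.8 CPM. Thbs1, thrombospondin, was at 7.41 CPM (5.65 to 9.53) against 47.7 CPM (44.6 to 50.9), a log2 ratio of -2.68, and higher in arthritis in the wild type (28.7 against 9.17 CPM). Thbs1 is not among the 12 lowest because genes at least 5-fold higher in another class were left out there. The part of other classes in its ratio was not tested. Cthrc1, Col11a1 and Col12a1 were the other 3 below 2-fold (log2 -1.04, -1.47 and -1.14), and elastin, Eln, was the 1 above it (1.03).

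The medians of the lining and sublining lists had opposite signs. Of 13 lining genes 4 were lower and 0 higher (median log2 -0.57), with the lubricant gene Prg4 at 11132 CPM in the arthritic and 23529.5 CPM in the healthy knockout (log2 -1.08) and Clic5, a chloride channel protein of lining cells, at 159 against 384 CPM (-1.28). Prg4 was at 11531 and 11157 CPM in the arthritic and healthy wild type. Within lining-gated cells, 1 of 8 counted genes of the lining list was higher and 0 lower (median 0.09). Of 18 sublining genes 2 were higher and 1 lower (median 0.22), against 1 higher and 11 lower in the wild type (median -1.05). Gsn, gelsolin, was at 26489.7 against 13129 CPM (log2 1.01), where the wild type had 5661 against 22982 CPM. Smoc2, a matricellular protein, was at 156 against 66.9 CPM (log2 1.22). Of 9 tendon genes 5 were lower (median -1.07).

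A few smaller groups completed the fibroblast picture. The endoplasmic reticulum folding list had 2 of 15 genes higher and 0 lower (median log2 0.41), Creld2 and Sdf2l1 (121 against 52.9 CPM, log2 1.19), with Manf just under 2-fold at 526 against 268 CPM (0.97). It moved the same way in the wild type, with 4 of 15 higher (median 0.58). MHC class II genes were lower, 4 of 6 with a median of -1.14, for example H2-Ab1 at 17.5 against 44.7 CPM and Cd74 at 22.5 against 48.2 CPM; myeloid cells held H2-Aa at 7630.0 and 8059 CPM in the arthritic and healthy knockout, far above fibroblasts. MHC class I genes did not pass 2-fold, 0 of 9 with a median of 0.00 (wild type 4 of 9, 0.67). Among Notch genes, 1 of 5 counted receptors and ligands was higher, the non-canonical ligand Dlk1 at 16.3 against 7.59 CPM (log2 1.10), and 0 of 4 targets passed 2-fold, with Hes1 at 141 against 97.0 CPM (0.54). The 16 dissociation-stress genes, induced by tissue digestion, had a median of 0.33 with 1 higher, and Hspa1a, under 2-fold, was at 418 against 217 CPM; its part in the results was not tested.

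**Figure D4:**
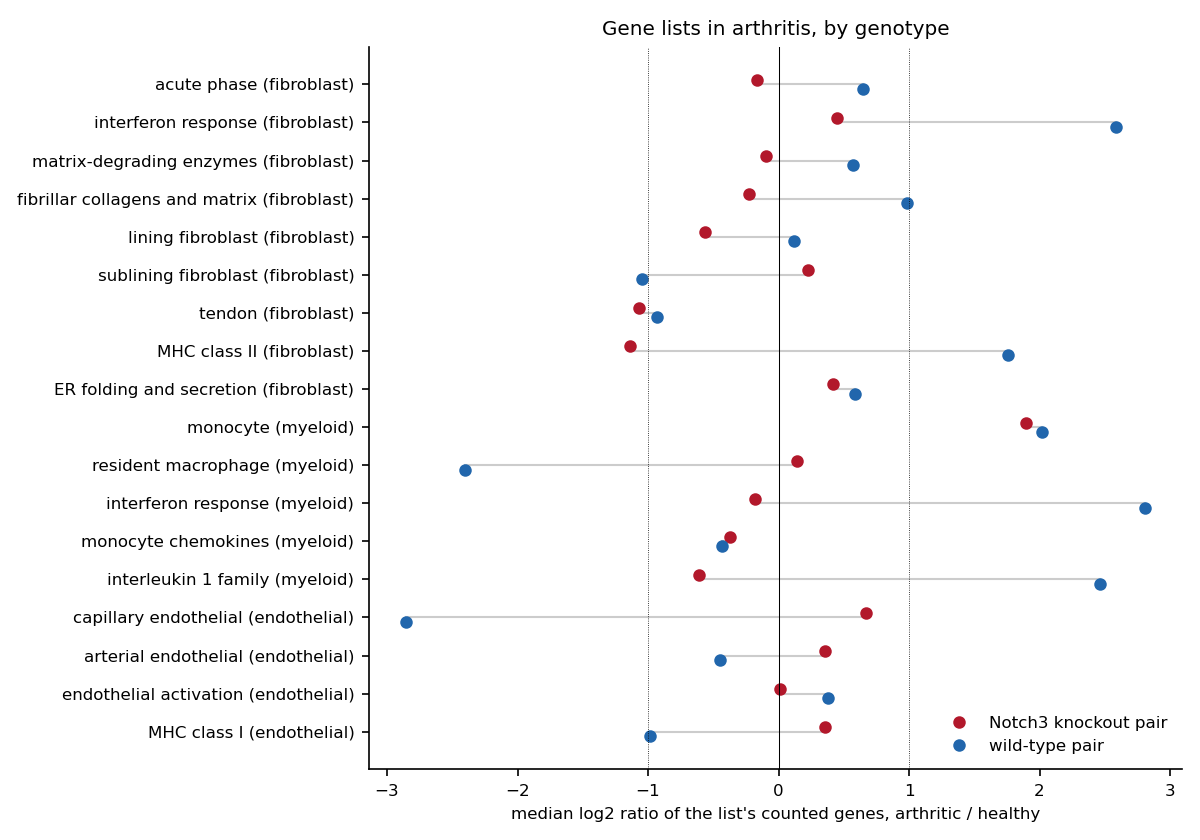
Median log2 ratio of arthritic to healthy over the counted genes of each list, for the knockout pair and the wild-type pair, in fibroblasts, myeloid and endothelial cells. The interferon list sits at 0.44 in the knockout and 2.59 in the wild-type fibroblasts, and at -0.18 and 2.81 in myeloid cells.

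Set against the wild-type response directly, a small share of it was kept in knockout fibroblasts. Among 10608 genes counted in both pairs, 502 were at least 2-fold higher in wild-type arthritis, and 20 of them (3.98%) were also 2-fold higher in the knockout pair, where 1.7% of all these genes were. Of 743 genes lower in wild-type arthritis, 20 (2.69%) were lower in the knockout, against 1.71% of all these genes. These 20 and 20 genes were 11.1% of the higher and 11.05% of the lower knockout genes, and more wild-type genes went past 2-fold in the opposite direction, 53 and 54. The median knockout ratio of the wild-type higher genes was -0.12, and that of the lower genes 0.10.

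Genes that did keep their direction included Il1rl1 and Cytl1, given above, and Spp1, which was at 1142 against 207 CPM in the wild type. Ccnb1ip1, a ubiquitin ligase, was at 13.3 against 1.35 CPM in the knockout pair and 58.6 against 2.55 CPM in the wild-type pair. H19, an imprinted noncoding RNA, was at 35.2 against 14.5 CPM and 253 against 12.9 CPM. Sult1e1, the oestrogen sulfotransferase, was lower in both, at 5.80 against 14.4 CPM and 2.11 against 55.2 CPM, as was the urotensin receptor Uts2r. Mest, another imprinted gene, had the same log2 ratio in both pairs (1.67).
Among the strongest wild-type genes that were not kept in the class as a whole, Nt5dc2 was at 7.53 and 6.73 CPM in the arthritic and healthy knockout, against 464 and 9.99 CPM in the wild type. Within lining-gated cells Nt5dc2 was kept, at 27.0 against 13.4 CPM (log2 1.02). Mfap4, a microfibril protein, was at 26.3 against 13.8 CPM (log2 0.93) in the knockout pair and at 167 against 8.66 CPM in the wild-type pair. Crabp2, which binds retinoic acid, and Wisp1, a matricellular protein, had knockout ratios of -0.03 and -0.82 and wild-type ratios of 3.63 and 3.36. Complement C7, Pcdh9 and the B-cell chemokine Cxcl13, all low in wild-type arthritis, had knockout ratios of -0.50, 0.11 and 0.35.

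To separate the mix of subtypes from the state of cells, fibroblasts were gated by 5 marker genes a subtype, with at least 2 detected. Lining cells (Clic5, Hbegf, Tspan15, Col22a1, Rab37) were 166 of 1720 fibroblasts in the arthritic knockout, or 9.65%, and 823 of 3664 in the healthy knockout, or 22.5%. After thinning every cell to 1500 UMIs, which left out 27 arthritic and 37 healthy shallower cells, the shares were 8.51% and 19.9%. The ratio of 0.430 (0.361 to 0.508; thinned 0.427) lay opposite to the wild type, where lining cells were 17.7% in the arthritic and 5.23% in the healthy library (ratio 3.39, thinned 2.58). Myoc-gated cells, a sublining subtype around the gene of myocilin, were 16.5% against 10.8% (thinned 11.8% against 8.57%), and 4.10% against 16.3% in the wild type. Sfrp4-gated cells, a matrix-rich subtype, were 31.0% against 25.6% (thinned 28.9% against 23.5%), Pi16-gated cells, taken for a fibroblast reservoir near vessels, 11.5% in both (thinned 7.21% against 7.89%), and tendon-like cells 1.57% against 4.94% (thinned 1.71% against 4.41%). The genes of a gate were left out of the results within the class, but the gates rest on genes that themselves differ between the libraries, such as Hbegf and Clic5.

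Some of the fibroblast differences were also seen within the gates. Over all classes, 117 of 202 ratios of named genes within gates were past 2-fold in the direction of the class. By interval, 84 lay within that of the class, 108 lay outside it and 10 had the opposite sign. The genes were named by class ratios, and the gates hold cells of the same classes. A shared direction is therefore no independent support. Il6 was lower in all 4 gates with enough cells, at 20.1 against 155 CPM in lining cells, 177 against 473 in Pi16 cells, 278 against 1026 in Myoc cells and 205 against 560.4 in Sfrp4 cells of the arthritic and healthy knockout. Errfi1 was lower in the same 4 gates (log2 -1.66, -1.47, -1.87 and -1.61), and Milr1 was higher in them (4.08, 2.50, 2.60 and 3.10). In lining cells Milr1 was higher in wild-type arthritis too, at 35.3 against 10.1 CPM. Icam1 passed 2-fold in Myoc cells, at 736 against 319 CPM, and in Sfrp4 cells, at 379.7 against 167 CPM, but not in lining or Pi16 cells (log2 0.56 and 0.70). Ccl11 stayed under 2-fold in each gate that expressed it (log2 0.62 in Pi16, 0.68 in Myoc and 0.56 in Sfrp4 cells), and Gsn lay between 0.44 and 0.78 in the 4 gates. Prg4 was level in lining cells, at 70379.5 and 73137 CPM (log2 -0.06), while outside them it was lower, for example at 667 against 1931 CPM in Pi16 cells. Cytl1 was at 139 against 5.34 CPM in lining cells and 57.0 against 19.5 CPM in Sfrp4 cells.

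The share of genes past 2-fold was similar in each knockout gate and smaller than in the wild type. It was 3.53% of 7931 genes in lining cells (97 higher, 183 lower; wild type 13.2%), 3.15% in Pi16 cells (wild type 9.3%), 3.48% in Myoc cells (13.4%) and 3.03% in Sfrp4 cells (11.9%). The wild-type shares rest on 186 arthritic and 93 healthy lining cells and 124 and 194 Pi16 cells. They rest on 43 and 290 Myoc cells and 352 and 746 Sfrp4 cells. The knockout shares rest on 166 and 823, 197 and 421, 283 and 397, and 533 and 937 cells in the same order. Small groups of cells widen ratios by counting error, and the part of this in the difference was not tested. Sfrp4 cells held the most genes that kept the wild-type direction, 18 of 324 higher (5.56%) and 18 of 473 lower (3.81%), where 1.27% and 1.64% of all genes counted in both pairs were higher and lower in the knockout. Among the 18 higher were Saa3 at 20.9 against 1.97 CPM (54 and 9 UMIs; 2310.3 against 4.61 CPM in the wild type), Il1rl1 at 47.7 against 15.3 CPM, Spp1 at 57.7 against 25.8 CPM, Cytl1, Ccl8 and the folding genes Creld2, Manf, Pdia6 and Sdf2l1. In lining cells 11 of 326 higher genes were kept (3.37%, against 0.786% of all genes), in Pi16 cells 4 of 147 (2.72%, against 0.984%; Hsph1, Manf, Sdf2l1 and Sox4) and in Myoc cells 6 of 174 (3.45%, against 1.52%; H19, Hmox1, Hspa1a, Sox4, Gatd1 and Tctn1). More wild-type higher genes went past 2-fold the opposite way, 22 in lining, 12 in Pi16, 19 in Myoc and 27 in Sfrp4 cells. Of the wild-type lower genes 6, 6, 7 and 18 were kept in these gates, and 5, 7, 13 and 13 went the opposite way. The interferon list had 0 of 7 genes higher in lining cells (9 of 10 in the wild type), 0 of 9 in Pi16 cells (5 of 11) and 2 of 12 in Sfrp4 cells (8 of 15). In Myoc cells the pairs were closer, with 2 of 9 higher in the knockout pair (median 0.54) and 3 of 7 in the wild-type pair (0.65). Isg15 was at 9.59 and 18.4 CPM in lining cells of the arthritic and healthy knockout, against 395 and 11.8 CPM in the wild type.

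**Figure D5:**
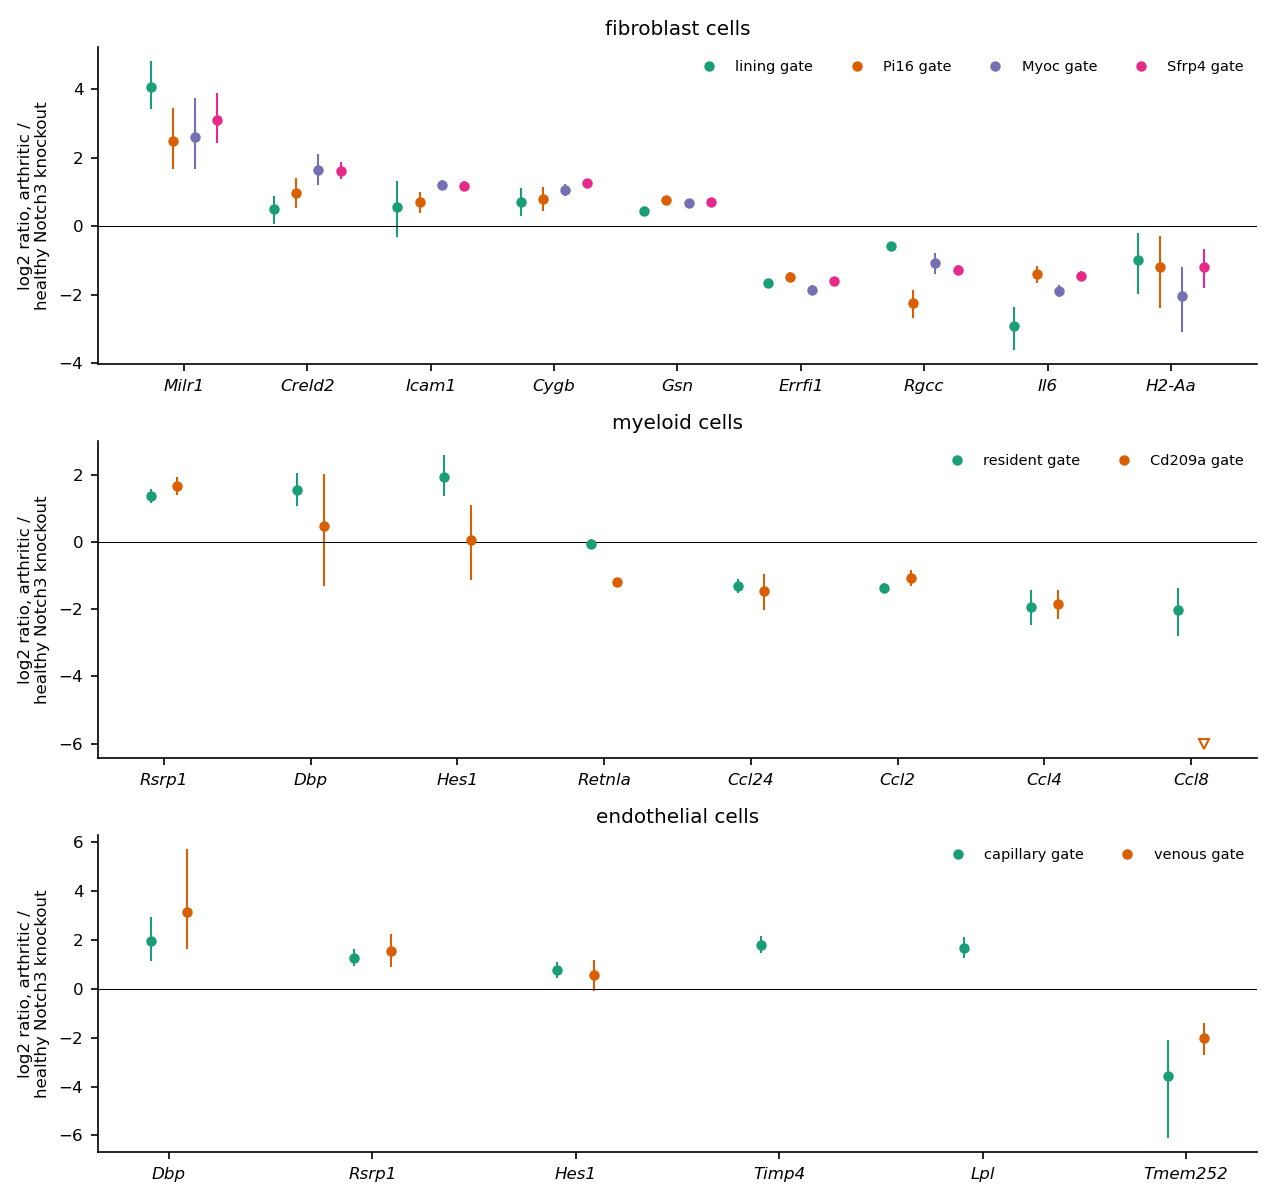
Log2 ratio of arthritic to healthy knockout for selected genes within each gated subtype, with 95% counting intervals; the open triangle marks a gene with 0 UMIs in the arthritic knockout. Il6 and Errfi1 lie below -1 in all 4 fibroblast gates and Milr1 above 1.

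In myeloid cells the knockout pair held higher monocyte genes. Of 7237 counted genes, 116 were at least 2-fold higher (1.6%) and 157 at least 2-fold lower (2.17%), against 483 (5.58%) and 1344 (15.5%) of 8649 in the wild type. The median log2 ratio over all counted genes was 0.05 in the knockout pair and -0.32 in the wild-type pair. The wild-type ratios as a whole thus leaned to the lower side. This bears on the lower wild-type genes used below as well, and its part in their number was not tested. Of 8 counted monocyte genes 4 were higher and 0 lower (median log2 1.90), against 7 of 10 higher in the wild type (median 2.02). Ly6c2, the surface antigen of classical monocytes, was at 125 CPM (111 to 141) in the arthritic and 2.71 CPM (1.30 to 4.98) in the healthy knockout, a log2 ratio of 5.46 (4.63 to 6.60), and at 877 against 23.5 CPM in the wild type. Plac8 was at 172 against 16.8 CPM (log2 3.35, 2.97 to 3.77). Ccr2, the receptor that brings monocytes out of marrow, was at 291 against 259.5 CPM (log2 0.17). Chil3 and Hp, the other members past 2-fold, were higher still in the neutrophils of the arthritic knockout, and the 8 neutrophil markers summed to 147 CPM in its myeloid cells against 7.59 CPM in the healthy knockout; its part in the result was not tested.

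Genes of resident macrophages, by contrast, did not differ over the whole myeloid class as they did in the wild type. None of 11 counted genes of resident macrophages passed 2-fold in the knockout pair (median log2 0.14), whereas 10 of 11 were lower in wild-type arthritis (median -2.40). Vsig4, the complement receptor of lining macrophages, was at 929 CPM (889 to 970.1) in the arthritic and 527 CPM (504 to 551) in the healthy knockout, against 133 and 629 CPM in the wild type. Lyve1, a hyaluronan receptor, was at 915 against 601 CPM, and at 103 against 1132 CPM in the wild type. Folr2 was at 754 against 589 CPM (log2 0.36), while Mrc1, the mannose receptor, was at 201 against 361 CPM (log2 -0.85). By gate (Lyve1, Vsig4, Folr2, Timd4, Cd163), resident cells were 42.3% of myeloid cells in the arthritic and 32.3% in the healthy knockout (thinned 42.1% against 32.1%, with 14 and 31 shallower cells left out), a ratio of 1.31 (1.09 to 1.58). In the wild type they were 5.14% against 42.4% (ratio 0.121). Within resident-gated cells the pairs were closer. Of 6 counted genes of the list 1 was lower in the knockout pair (median -0.31) and 2 in the wild-type pair (median -0.56). Trem2-gated cells were 5.83% against 5.37% (thinned 4.68% against 4.6%). In the wild type they were 25.8% against 10.4%, but 10.4% against 9.72% with at least 3 gate genes detected. Cd209a-gated cells (Cd209a, Mgl2, Clec10a, Ccl17, H2-Eb1) were 29.6% against 40.7% in the knockout (thinned 29.8% against 39.2%).

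Inflammatory genes of myeloid cells were mostly lower in the arthritic knockout or under 2-fold. Of 13 counted monocyte-attracting chemokines and receptors 6 were lower and 2 higher (median log2 -0.37). Ccl2 was at 447 against 963 CPM, Ccl7 at 398 against 859 CPM (log2 -1.11 each), and Ccl4 at 85.6 CPM (73.8 to 98.8) against 228 CPM (log2 -1.41). Ccl8 was at 10.99 CPM (7.04 to 16.4) against 72.9 CPM (64.4 to 82.1), a log2 ratio of -2.70. Ccl4 and Ccl8 ran the other way in the wild type, at 449.7 against 149.5 CPM and 149 against 46.7 CPM, and Ccl8 ran the other way in knockout fibroblasts. That held for the class as a whole: within resident cells Ccl8 had 0 UMIs in the arthritic wild type against 28.9 CPM in the healthy one, and within Cd209a cells Ccl4 was at 148 against 315 CPM in the wild type, both in the direction of the knockout. Ccr1, a chemokine receptor, was higher, at 105 against 42.3 CPM.
The cytokine Il1b was at 395 CPM (369 to 422) against 948 CPM (917 to 979.9), a log2 ratio of -1.26, while the wild type had 897 against 77.8 CPM. Its antagonist Il1rn was level at 39.8 and 39.3 CPM (wild type 372 against 34.0 CPM). In the interleukin 1 family as a whole 2 of 6 genes were lower and 0 higher, against 5 higher of 7 in the wild type. The interferon list had 0 of 12 genes higher and 1 lower (median -0.18), against 16 higher of 18 in the wild type (median 2.81), with Irf7 at 15.1 against 32.0 CPM in the knockout pair and 539 against 12.9 CPM in the wild-type pair.

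Retnla, Ccl24 and 3 C-type lectins were lower in arthritis in both pairs. Retnla, a resistin-like protein of alternatively activated macrophages, was at 1503 CPM (1452 to 1555) in the arthritic and 3258 CPM (3199.8 to 3317) in the healthy knockout (log2 -1.12), while in the wild type it was at 1.63 against 969 CPM. Ccl24, another such product, was at 173 against 394 CPM (log2 -1.19; wild type 30.4 against 226 CPM). The C-type lectins Cd209f, Cd209g and Cd209b were lower, at 21.5 against 83.4 CPM, 14.7 against 39.8 CPM and 14.2 against 30.9 CPM. In the wild type Cd209f, Cd209g and Cd209b were at 3.59, 2.94 and 2.94 CPM in arthritis. Within Cd209a cells of the knockout pair the log2 ratio of Cd209g was 1.37. Spp1 was at 27.5 against 16.3 CPM in the knockout pair and at 2809 against 13.6 CPM in the wild-type pair.

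Of the wild-type response as a whole, 15 of 348 higher genes (4.31%) and 42 of 1001 lower genes (4.20%) kept their direction in knockout myeloid cells. With doublets kept the sum was 91 genes in place of 57. Over all 7182 genes counted in both pairs, 1.55% were higher and 1.85% lower in the knockout pair. Opposite to the wild type beyond 2-fold were 29 and 31 genes. The kept genes were 13.5% of the higher and 31.6% of the lower knockout genes. Among those that were not kept, Ms4a4c was at 61.4 and 58.2 CPM in the arthritic and healthy knockout (726 against 22.8 CPM in the wild type), Clec4e, a C-type lectin of activated phagocytes, at 23.4 and 24.9 CPM (194 against 7.97 CPM), the decoy receptor Il1r2 at 12.8 and 13 CPM (86.5 against 3.26 CPM), and Fcna, ficolin A, at 96.6 and 72.6 CPM (10.5 against 198 CPM).

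Further genes at the ends of the myeloid ranking were of lower abundance. Hes1, a Notch target, was at 74.6 CPM (63.6 to 87.0) in the arthritic and 17.9 CPM (13.8 to 22.7) in the healthy knockout (log2 2.06), against 47.7 and 82.2 CPM in the wild type, and was also higher in endothelial cells of the same library. Dbp and Nr1d1, both output genes of the circadian clock, were at 79.2 against 22.8 CPM (log2 1.80) and 59.1 against 21.1 CPM (1.48). Nol4l (2.83), Fmnl3 (2.01), Rsrp1 (1.59), Dlg4 and Hyal2 (1.54 each), Nlrc3 (1.49), Pald1 (1.47) and Esrra (1.36) were among the other high ones. At the low end H2-M2, a nonclassical MHC gene, was at 2.29 against 24.1 CPM (log2 -3.27, -5.05 to -2.12), and Wnt11 at 6.87 against 26.5 CPM (-1.91). Ccl12 (-1.69), Cfd (-1.55), Gpcpd1 (-1.45), Cyld and Tppp (-1.37 each) and Cass4 (-1.33) completed it.

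Fibroblast transcripts in myeloid cells also differed between the libraries. All 6 counted lining genes were lower in myeloid cells of the arthritic knockout (median log2 -2.74; summed level 100.3 against 915 CPM), with Prg4 at 61.4 against 745 CPM, and 7 of 11 collagen and matrix genes were lower (median -2.13). The part of free RNA in this was not tested. Without genes at least 5-fold higher in another class, 69 genes were lower and 89 higher of 6687.

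Within the gates, resident macrophages had 53 genes higher and 70 lower (2.88% of 4267 either way; wild type 13.6%), and Cd209a cells 32 higher and 108 lower (3.41% of 4102; wild type 18.8%). The resident gate held 196 arthritic and 277 healthy knockout cells, and 52 and 323 in the wild type. The Cd209a gate held 137 and 349 knockout cells, and 74 and 175 in the wild type. The part of these cell numbers in the shares was not tested. Ccl2 and Ccl24 were lower in both gates of the knockout pair: Ccl2 was at 558 against 1444 CPM in resident and 227 against 477 CPM in Cd209a cells, and Ccl24 at 292 against 719 CPM and 48.3 against 133 CPM. Retnla was level in resident cells, at 1023 and 1051 CPM, and lower in Cd209a cells, at 1700.3 against 3833 CPM (log2 -1.17, -1.26 to -1.09). Ccl8 was at 24.3 against 99.97 CPM in resident cells and had 0 UMIs in arthritic Cd209a cells against 72 in healthy ones. Hes1 was at 118 against 30.2 CPM in resident cells (log2 1.96, 1.38 to 2.59), where it was also higher in wild-type arthritis (302 against 98.0 CPM), but at 14.4 and 14.0 CPM in Cd209a cells. In resident cells 7 of 94 higher (7.45%) and 16 of 301 lower wild-type genes (5.32%) were kept, where 1.16% and 1.4% of all genes were higher and lower in the knockout, among them Cd209d, Cd209f, Cd209g, Mrc1 and Ccl8. In Cd209a cells 4 of 178 (2.25%, against 0.637% of all genes) and 20 of 411 (4.87%, against 1.61%) were kept, the 20 including Ccl2, Ccl4, Ccl7, Ccl12, Ccl24, Retnla, Igf1 and Pf4 beside the fibroblast transcripts Col1a2, Col3a1, Dcn and Sparc. Past 2-fold the opposite way were 3 higher and 3 lower wild-type genes in resident cells, and 10 and 2 in Cd209a cells.

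In endothelial cells the median of the capillary list was above 0 in the knockout pair and below it in the wild-type pair. Over 3118 counted genes, 70 were higher (2.25%) and 55 lower (1.76%), against 311 (7.87%) and 424 (10.7%) of 3954 in the wild type. Of 9 capillary genes 2 were higher and 0 lower (median log2 0.67), whereas all 9 were lower in wild-type arthritis (median -2.86). Timp4, a protease inhibitor of capillary endothelium, was at 762 CPM (689 to 841) in the arthritic and 172 CPM (139 to 211) in the healthy knockout, a log2 ratio of 2.14 (1.82 to 2.49), against 11.9 and 391 CPM in the wild type. Car4, carbonic anhydrase 4, was at 469 against 152 CPM (log2 1.62), and 14.5 against 373 CPM in the wild type. Lpl, the lipoprotein lipase, was at 455 CPM (399 to 517) against 113 CPM (86.3 to 145), and its anchor Gpihbp1 at 1533 against 793 CPM (log2 0.95). The fatty acid carriers Cd36 and Fabp4 were under 2-fold, at 2137 against 1391 CPM and 22145 against 13093 CPM.
Capillary-gated cells (Rgcc, Gpihbp1, Cd36, Car4, Btnl9) were 56.2% of endothelial cells in the arthritic and 47.8% in the healthy knockout, and the interval of the ratio included 1 (1.17, 0.905 to 1.53). Thinned to 1500 UMIs, with 85 and 92 of the shallow endothelial cells left out, the shares were 40.0% and 29.7%. The wild type had 22.6% against 67.1%. Venous cells were 19.6% against 22.2% (thinned 24.7% against 29.7%) and arterial cells 14.5% against 12.2% (thinned 16.7% against 11.6%). In the wild type venous cells were 46.6% against 18.7% and arterial cells 4.51% against 6.45%. Within capillary cells of the knockout pair Timp4 was at 1605 against 455 CPM and Lpl at 990.2 against 311 CPM.

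Genes by which endothelium holds leukocytes stayed under 2-fold in the knockout pair, as did most endothelial genes. Of 11 counted activation genes 0 passed 2-fold in either direction (median log2 0.01). Over all counted endothelial genes 2.25% were higher and 1.76% lower, so 0 of 11 does not set this list apart. In the wild type 4 activation genes were higher (median 0.38), where 7.87% of all counted genes were. Selp, P-selectin, was at 287 against 252 CPM (log2 0.19, -0.15 to 0.54), Ackr1, the chemokine carrier of venules, at 139 against 154 CPM, and Lrg1 at 611 against 605 CPM. In the wild type the 3 were at 732, 381 and 1538 CPM in arthritis and at 320.3, 113 and 418 CPM in health. All 3 are genes of the venous gate, whose wild-type share was larger in arthritis. The part of that share in their levels was not tested. Interferon genes were 2 of 9 higher and 0 lower (median 0.54), Irf7 at 88.7 against 35.1 CPM (log2 1.31, 0.54 to 2.19) and Iigp1 at 1018 against 494 CPM (1.04), and Irf7 was higher in wild-type arthritis as well (164 against 56.6 CPM). MHC class I genes had 0 of 9 past 2-fold with a median of 0.36.

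Notch signals of endothelium were not uniform. Of 4 counted Notch targets 2 were higher and 0 lower (median log2 0.95), Hey1 at 90.7 against 42.5 CPM (log2 1.08, 0.34 to 1.88) and Ptp4a3 at 199 against 72.1 CPM (1.45, 0.92 to 2.03), with Hes1 at 681 against 383 CPM (0.83). In the wild type Hes1 stood lower in arthritis, at 318 against 713 CPM. The ligand Dll4 was at 71.4 against 122 CPM and the receptor Notch1 at 106 against 170.2 CPM (log2 -0.77 and -0.68, both under 2-fold). The arterial connexin Gja4 was at 158 against 72.1 CPM (log2 1.12).

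Other endothelial genes at the ends of the ranking came with few UMIs. Penk, an opioid precursor, was at 102 CPM (76.6 to 134) against 7.40 CPM (2.02 to 18.9), a log2 ratio of 3.63, and higher in wild-type arthritis (71.4 against 31.9 CPM). Ccl7 was at 249 CPM (208 to 296) against 25.9 CPM (14.2 to 43.4), although myeloid cells of both libraries held more of it. Dbp (log2 2.21), Adh1 (2.20), Milr1 (2.69), Hrct1 (1.87), Alpl (1.61), Rsrp1 (1.57) and Xdh (1.55) were the other high ones. Among the low genes, Ccl21a, the lymphatic chemokine, had 0 UMIs in the arthritic knockout against 2282 CPM in the healthy knockout, at least 394-fold lower if 3 UMIs are allowed in the arthritic library, and Mmrn1 was at least 21.1-fold lower. Cells with 2 lymphatic markers were 0 of 235 in the arthritic knockout, which allows a share of up to 1.28%, and 12 of 230 in the healthy knockout (5.22%). Nts had 1 UMI against 80 (log2 -5.69, -11.58 to -3.74), and Lyve1 was at 21.2 against 148 CPM. Without the 12 lymphatic-marked cells the log2 ratio of Lyve1 was 2.92. Tmem252 was at 71.4 against 351 CPM (log2 -2.28), Insr, the insulin receptor, at 27.0 against 113 CPM (-2.02) and Hbegf at 109.9 against 311 CPM (-1.49); Fgl2 (-1.90), Efr3a (-1.72), Ugcg (-1.71), Fxyd6 (-1.57) and Eid1 (-1.48) were the rest.

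Of the wild-type endothelial response, 4 of 189 higher genes (2.12%) and 12 of 335 lower genes (3.58%) were kept, where 1.87% and 1.73% of 3000 genes were higher and lower in the knockout pair. More went past 2-fold the opposite way, 12 and 28 genes. Among the kept genes, Hspa1a, a heat shock protein, was at 978 CPM (895 to 1067) against 372 CPM (322 to 427) and Fgl2, a prothrombinase-like protein, at 63.7 against 240.4 CPM, with 798 against 202 CPM and 84.6 against 311 CPM in the wild type. Irf7 and Penk were the other kept genes named that were higher. Akap12, Fxyd6, Gpm6a and Tagln were lower in both pairs; Tagln, at 125 against 318 CPM, is abundant in mural cells, whose markers were lower in endothelial cells of the arthritic knockout (2 of 4 counted, median -1.15). Not kept were Cxcl9 (98.4 against 51.8 CPM in the knockout pair, 2.64 against 152 CPM in the wild-type pair), the capillary transcription factors Tcf15 (363 against 211 CPM; 14.5 against 345 CPM) and Pparg (145 against 77.7 CPM; 14.5 against 195 CPM), and Col15a1 (88.7 against 113 CPM; 729.5 against 49.5 CPM). Fmo2, Rbp7, Cldn15 and Cd36 had knockout ratios of 0.55, 0.09, 0.60 and 0.62 and wild-type ratios of -4.59, -3.79, -3.71 and -3.65. Within capillary cells, 38 genes were higher and 30 lower (5.39% of 1261; wild type 33.4%), and 0 of 183 higher and 4 of 199 lower wild-type genes (2.01%) were kept, where 2.23% and 1.8% of all genes were higher and lower in the knockout. Of these wild-type genes, 5 and 16 went past 2-fold the opposite way. The capillary shares rest on 132 arthritic and 110 healthy knockout cells and on 30 and 104 wild-type cells. A small group of cells widens ratios by counting error, and its part in the wild-type share was not tested. Venous cells of the knockout pair had 13 higher and 12 lower genes (2.99% of 835).

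Mural cells, the class with the highest Notch3 level in the wild type, were too few for more than their abundant genes. None of 6 counted mural genes passed 2-fold (median log2 -0.23), where 4.26% of 376 genes counted in mural cells were higher and 2.13% lower, with the pericyte gene Rgs5 at 1932 CPM (1623 to 2283) in the arthritic and 2146 CPM (1782 to 2562) in the healthy knockout and smooth muscle actin, Acta2, at 1680.3 against 3254 CPM (log2 -0.95, -1.30 to -0.61). Hes1 was at 672 against 317 CPM (log2 1.06, 0.28 to 1.96). In the 39 and 57 T and NK cells the chemokine Ccl5 was at 5710.2 against 2424 CPM (log2 1.24, 1.04 to 1.43) and Nkg7, a cytotoxic granule protein, at 1192 against 581.6 CPM (1.03), whereas Il7r, the interleukin 7 receptor of resting T cells, was at 194 against 526 CPM (-1.41). Fibroblast transcripts were lower there too, with Col1a1 at 136 against 1121 CPM.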

How the data were processed

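Live cells of knee synovium pooled from 10 mice a library were captured with a 10x Genomics 3' kit after 7000 cells were loaded, per the labels' protocols. The authors deposited UMI counts per gene and cell for 6 libraries; per the submitters' processing notes the tool was Cell Ranger 3.0.2 and the build mm10. The deposited barcodes had at most 20% mitochondrial UMIs, and those above 10% were left out here. All 31017 genes were read, and 0 columns went unmatched.

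Doublets were marked per library with scrublet (expected rate 0.03) in scanpy 1.11.5. All libraries were clustered together (2000 variable genes, 30 components, 20 neighbours, leidenalg 0.10.2 at resolution 1), giving 24 clusters. A cluster took a class name from at least 3 markers found in 20% of its cells; this naming rule was chosen after seeing the data. UMIs were summed per class or gate and library and scaled to CPM. A gene was counted with at least 50 UMIs over both libraries of a pair, ratios used a pseudocount of 0.5 UMI, and called means past 2-fold. Gates had 5 genes, at least 2 detected, and 30 cells a side for gene ratios. Levels have exact Poisson intervals, shares exact Clopper-Pearson intervals and ratios exact conditional binomial intervals, all at 95%; a count of 0 was bounded by 3. Scripts ran in Python 3.11.15 with scipy 1.17.1, numpy 2.4.6, pandas 2.3.3 and matplotlib 3.10.9, and the ratio step was tested on simulated counts.

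Named genes were, per class, the 12 highest and 12 lowest ratios among genes with at least 20 CPM in the higher library, leaving out predicted, mitochondrial, ribosomal, haemoglobin, immunoglobulin and sex-linked genes and genes at least 5-fold higher in another class of that library. Members of the 53 lists with large ratios and, per class, 8 kept and 8 not kept wild-type response genes were added. Genes the text names within gates beyond these were chosen after their values were seen. The members, lists and comparisons were chosen with earlier results of these data known. Alternatives were other UMI minimums, 3-fold, scalings, doublets kept, all deposited barcodes, resolution 2, thinning and gates. The antibody-treated libraries entered the clustering and gave 1 value of Milr1. A few items that the naming rule or the gates would include are not reported here.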

Additional observations from a re-analysis of the deposited data

Results flagged for a closer look

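The following results had opposite directions in the knockout and the wild-type pair. With 1 library a group, none of these differences was tested, and no explanation was weighed.

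In fibroblasts the log2 ratio of arthritic to healthy was higher in the knockout pair and lower in the wild-type pair for Fgf7 (1.59 and -1.35), Icam1 (1.52 and -1.83), Cygb (1.48 and -1.14) and Ccl11 (1.40 and -2.11). It was lower in the knockout pair and higher in the wild-type pair for Thbs4 (-1.70 and 1.59), Sox11 (-1.70 and 2.46), Sorbs2 (-1.57 and 1.25) and Inhba (-1.56 and 3.59). Within the knockout gates Ccl11 stayed under 2-fold, as did Icam1 in lining and Pi16 cells. The cluster led by Ccl11 held 23.4% against 10.5% of fibroblasts in the knockout and 4.76% against 20.9% in the wild type. Thbs4 is a gene of the tendon-like gate, whose share was 1.57% against 4.94% in the knockout and 2.38% against 1.74% in the wild type. The part of these shares in the ratios was not tested.

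In myeloid cells Dbp (1.80 and -1.74), Dlg4 (1.54 and -1.17), Hyal2 (1.54 and -1.62), Nlrc3 (1.49 and -1.24) and Nr1d1 (1.48 and -1.04) were higher in the arthritic knockout and lower in the arthritic wild type. Ccl8 (-2.70 and 1.67) and Ccl4 (-1.41 and 1.59) ran the other way. Within gates this did not hold throughout: in resident cells Ccl8 was lower in arthritis in both pairs (24.3 against 99.97 CPM in the knockout, 0 UMIs against 28.9 CPM in the wild type), and in Cd209a cells Ccl4 was (log2 -1.84 and -1.07).

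In endothelial cells Dbp (2.21 and -2.19), Timp4 (2.14 and -4.96), Lpl (2.004 and -4.90), Hrct1 (1.87 and -2.79), Car4 (1.62 and -4.62) and Xdh (1.55 and -1.95) were higher in the arthritic knockout and lower in the arthritic wild type. Nts (-5.69 and 1.24), Insr (-2.02 and 1.29) and Hbegf (-1.49 and 1.20) ran the other way. Cells with 2 lymphatic markers also ran opposite ways. They were 0 of 235 endothelial cells in the arthritic and 12 of 230 in the healthy knockout. In the wild type they were 9 of 133 (6.77%) in the arthritic and 4 of 155 (2.58%) in the healthy library. The part of these cells in the opposite directions was not tested.

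The share ratio of lining cells among fibroblasts was 0.430 in the knockout and 3.39 in the wild-type pair. For Myoc cells it was 1.52 and 0.251, for Sfrp4 cells 1.21 and 0.799, and for resident macrophages among myeloid cells 1.31 and 0.121.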

How the results depend on the processing

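Class and gate share ratios of the knockout pair stayed within their 95% intervals under all deposited barcodes, doublets kept, resolution 2, thinning and at least 3 gate genes, with ratios close to 1 (myeloid cells, Trem2 and dendritic 1 gates) crossing 1 under some. Wild-type gate ratios moved more: thinned and with at least 3 gate genes, lining was 2.58 and 2.51 in place of 3.39 and Sfrp4 0.569 and 0.599 in place of 0.799. Capillary was 0.214 thinned and 0.231 with 3 genes in place of 0.336, and resident 0.166 thinned in place of 0.121. With 3 genes Trem2 was 1.07 in place of 2.48, Myoc 0.144 in place of 0.251 and Cd209a 0.229 in place of 0.318. The counts of genes past 2-fold in fibroblasts, myeloid and endothelial cells were 443, 273 and 125; they were 802, 604 and 473 with at least 20 UMIs, 187, 64 and 21 with at least 200 UMIs, and 90, 88 and 27 at 3-fold. The myeloid count was 158 without genes at least 5-fold higher in another class, an alternative chosen after seeing the data. Wild-type responses kept numbered 40, 57 and 16; they were 98, 110 and 49 with at least 20 UMIs, 15, 15 and 3 with at least 200 UMIs, and 7, 18 and 4 at 3-fold, and the myeloid count was 91 with doublets kept. The cause of that last difference was not tested.

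Some named genes changed sign within a gate: Apoe in lining cells (log2 -0.78), Il1rl1 in lining cells (-0.93), Kera (0.26) and Inhba (0.36) in Myoc cells, Sult1e1 (0.51) and H19 (-0.20) in Sfrp4 cells, Cd209g (1.37) and Cd209b (0.039) in Cd209a cells, and Fxyd6 (0.0049) and Hspa1a (-0.44) in venous cells. Without lymphatic-marked cells, 31 of 37 named endothelial ratios stayed within their intervals and 5 moved out of them. The remaining 1, that of Lyve1, changed sign to 2.92. By mean over cells or median-of-ratios scaling, no named gene past 2-fold changed sign among the 112 named. No paired analysis was possible because each group has 1 library. Depth limits genes under 50 UMIs and the small classes.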
